A study of Mus musculus with 13 samples.

Results

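The genes described here make, carry and take up the fuels that Sertoli cells share with germ cells. They are 10 genes chosen by name from the pathway of lactate production, lactate export and glucose uptake: the lactate dehydrogenase subunits Ldha, Ldhb and Ldhc, the monocarboxylate carriers Slc16a1, Slc16a3 and Slc16a7, the glucose carriers Slc2a1, Slc2a3 and Slc2a8, and Bsg. Each was matched by its exact symbol, and all 10 were found among the 27111 features with a gene name and passed the filter on low counts that left 14421 genes to test. No measured value entered the choice by the rule itself.

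The samples were Sertoli cell-enriched preparations from the testes of adult male C57Bl/6J mice, whose genotype the labels give as Bl6 wt, with 1 RNA-seq library per mouse. The comparison held 7 MSUS libraries and 6 control libraries. MSUS joins a loss of maternal care, 3 h daily on an irregular schedule over postnatal days 1 to 14, with stress of the dam, which was either a cold swim (18 °C, 5 min) or confinement (20 min). Controls received no such handling, and both groups went through the same sort, which kept diploid cells by Hoechst staining, of large size by forward scatter and with high MitoTracker signal. Libraries were made from 5 ng of total RNA, litter and cage were not analysed here, and p-values measure the spread between mice that may share a litter. The estimated counts summed to between 13087200 and 18649900 per control library and to between 12701800 and 15693900 per MSUS library.

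In the seminiferous epithelium, Sertoli cells take up glucose from the blood side and convert much of it to pyruvate and lactate, and meiotic and post-meiotic germ cells behind the blood-testis barrier use that lactate as their main fuel. Lactate dehydrogenase interconverts pyruvate and lactate: the A subunit is classically linked to lactate production, the B subunit to lactate oxidation, and the C subunit is the isozyme of spermatocytes and sperm. MCT1 (Slc16a1), MCT4 (Slc16a3) and MCT2 (Slc16a7) carry lactate with a proton across the plasma membrane, basigin (Bsg) brings MCT1 and MCT4 to the cell surface, and GLUT1 (Slc2a1), GLUT3 (Slc2a3) and GLUT8 (Slc2a8) carry hexoses.

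The sorted cells carried the Sertoli cell programme at a high level. The mean over 10 Sertoli cell markers (Amhr2, Clu, Ctsl, Rhox5, Sox9, Dhh, Fshr, Wt1, Gata4 and Trf) was 8.65 ± 0.08 log2 CPM (CPM, read counts scaled to a common library size after TMM normalization, SD, n = 6) in controls and 8.62 ± 0.07 (n = 7) in MSUS. Germ cell RNA was also present. The highest germ cell mean was that of 7 elongated spermatid markers, with 7.43 ± 0.22 log2 CPM (SD) for the 6 controls. The 7 MSUS libraries had 7.57 ± 0.45. The mean over 6 spermatocyte markers ranged from 4.49 to 5.03 log2 CPM in controls and from 3.96 to 5.17 in MSUS, and that over 6 round spermatid markers from 3.29 to 3.61 and from 3.20 to 4.51. Library MSUS 1 had the lowest spermatocyte mean, and library MSUS 11 had the highest spermatocyte and the highest round spermatid mean. None of the 23 tested spermatogonial, spermatocyte and spermatid markers had an unadjusted p under 0.05 between the groups. Leydig cell markers averaged 2.63 ± 0.67 log2 CPM (SD) over the controls and 2.82 ± 0.36 over the MSUS libraries. For peritubular myoid markers these means were 2.26 ± 0.82 and 2.79 ± 0.98. Macrophage and lymphoid means were below 0 log2 CPM in both groups, and of the erythroid markers Hba-a1 and Hbb-bt were at 0 in all 13 libraries while Alas2, the erythroid enzyme that starts haem synthesis, ran from 7.39 to 8.04 log2 CPM. The endothelial mean was 3.09 ± 0.18 log2 CPM (SD) in controls, with a range of 2.90 to 3.37, and 3.34 ± 0.14 in MSUS, from 3.15 to 3.58. Of the endothelial markers, 1 of 4, Tek, was higher in MSUS at p under 0.05. The relation of the 10 genes to the endothelial mean was not tested. In such bulk RNA, fewer cells of a type and less RNA per cell cannot be told apart.

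The LDH genes are introduced by their promoters. Ldha and Ldhc lie side by side and had the highest correlation over the libraries of any pair of the 10 genes, at 0.87. Ldhc and Slc2a3, which lie on different chromosomes, came next at 0.85. A link of position or promoter with these correlations was not tested. In GRCm38, Ldha occupies chr7:46841475-46855627 and Ldhc chr7:46861203-46878142, both on the plus strand and 5575 bases apart, while Ldhb lies on the minus strand at chr6:142490249-142507957. The windows below are the 300 bases around a RefSeq start on GRCm38.p6, most of them upstream, written 5′ to 3′ on the gene's strand. Capitals mark 3 short motifs on either strand: GGGCGG (the GC box bound by SP factors), ACGTG (the core recognised by hypoxia-inducible and E-box factors) and TGACG (part of the cAMP response element).
Ldha, chr7:46845554-46845853, plus strand: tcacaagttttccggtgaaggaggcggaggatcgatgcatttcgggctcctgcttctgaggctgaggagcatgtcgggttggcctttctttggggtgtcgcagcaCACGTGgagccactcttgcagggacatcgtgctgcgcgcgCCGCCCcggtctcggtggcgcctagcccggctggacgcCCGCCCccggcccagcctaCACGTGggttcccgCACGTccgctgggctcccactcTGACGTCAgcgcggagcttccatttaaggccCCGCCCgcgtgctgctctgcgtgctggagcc
Ldhb, chr6:142507908-142508207, minus strand: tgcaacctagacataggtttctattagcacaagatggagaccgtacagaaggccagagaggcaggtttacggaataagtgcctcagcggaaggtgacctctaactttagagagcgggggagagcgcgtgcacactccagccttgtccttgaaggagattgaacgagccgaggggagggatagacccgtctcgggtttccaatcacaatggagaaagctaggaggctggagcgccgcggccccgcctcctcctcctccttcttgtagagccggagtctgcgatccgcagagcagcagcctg
Ldhc, chr7:46861013-46861312, plus strand: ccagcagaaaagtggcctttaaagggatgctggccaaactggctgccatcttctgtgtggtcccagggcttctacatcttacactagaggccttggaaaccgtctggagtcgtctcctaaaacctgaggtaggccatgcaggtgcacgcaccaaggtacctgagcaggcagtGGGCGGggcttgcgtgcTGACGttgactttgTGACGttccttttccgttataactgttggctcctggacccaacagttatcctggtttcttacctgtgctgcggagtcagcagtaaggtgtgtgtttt
The Ldha window held 3 copies of GGGCGG, 5 of ACGTG and 2 of TGACG, counting a palindromic match on both strands, and it had 30 CpG dinucleotides, more than 88.3% of the 32851 RefSeq promoter windows of the same length. The Ldhc window held 1 copy of GGGCGG, none of ACGTG and 2 of TGACG, with 9 CpG. The Ldhb window had 17 CpG and none of the 3 motifs by exact match. Of all windows, 35.7% held GGGCGG, 19.6% ACGTG and 20.8% TGACG, so single matches are common. RefSeq lists a further window for Ldha and for Ldhc, which is not printed. That of Ldha, chr7:46846832-46847131, had its start 1 base from that of the longest coding transcript, against 1279 bases for the printed window. This further Ldha window held no GGGCGG, no ACGTG and 1 TGACG, with 13 CpG. The further Ldhc window held none of the 3 motifs and had 3 CpG. The motif and CpG counts of Ldha thus depended on the start chosen.

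The B subunit was the dominant lactate dehydrogenase transcript of these cells. Levels can be set between genes only per length, and here CPM values were divided by the kilobases of the longest protein-coding transcript of each gene. In control libraries Ldhb stood at 715 ± 64.3 CPM per kb (SD, n = 6), Ldhc at 150.0 ± 22.3 and Ldha at 71.6 ± 5.47. Ldhb was 10.02 ± 1.04-fold above Ldha in controls, with a range of 8.35 to 11.6, and 10.4 ± 2.77-fold above it in MSUS. Of the summed LDH level in controls, Ldhb made up 76.3% ± 3.16, Ldhc 16.1% ± 2.72 and Ldha 7.65% ± 0.538, and the order Ldhb, Ldhc, Ldha held in all 13 libraries. The MSUS shares were 75.5% ± 4.51, 16.9% ± 3.45 and 7.54% ± 1.15.

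The other genes lie on separate chromosomes or far apart in GRCm38. Slc16a1 is at chr3:104638668-104658462, Slc16a3 at chr11:120948480-120960868 and Bsg at chr10:79704491-79711969, all on the plus strand, and Slc16a7 is at chr10:125219270-125389465 on the minus strand. Slc2a1 is at chr4:119108711-119137983 on the plus strand, and Slc2a3 at chr6:122727809-122801640 and Slc2a8 at chr2:32972990-32982083 are on the minus strand. Of sequence that reads could share, 19.6% of the 31-base words of the Ldha transcript also occur in other transcripts and 0.590% of its 100-base words. The shares were at most 2.48% and 0.672% for the carriers, Ldhc and Bsg. Some 31-base words of Ldha, Slc16a7 and Slc2a3 occur in 1480, 1407 and 1180 other genes. The counts of Slc16a7 and Slc2a3 were not whole in any of the 13 libraries, and those of Ldha were not whole in 7.

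MCT1 held most of the lactate carrier transcript. Slc16a1 stood at 47.9 ± 1.57 CPM per kb in controls, Slc16a7 at 2.61 ± 0.448 and Slc16a3 at 1.49 ± 0.316. Slc16a1 was thus 33.3 ± 6.81-fold above Slc16a3, the carrier usually tied to glycolytic export, and 18.8 ± 3.11-fold above Slc16a7, a high-affinity carrier that is abundant in germ cells. These folds depended on the length used. With the median length of the coding transcripts, the control levels were 47.9 CPM per kb for Slc16a1, 11.9 ± 2.03 for Slc16a7 and 3.98 ± 0.844 for Slc16a3. With the longest transcript, the share of Slc16a1 among the 3 carriers was 92.1% ± 0.740 in controls and 91.0% ± 2.27 in MSUS. Slc16a3 made up 2.86% ± 0.572 and 3.61% ± 0.758, and Slc16a7 5.02% ± 0.872 and 5.39% ± 2.15. The widest departure was library MSUS 11, where Slc16a7 reached 10.1%. Slc16a7 exceeded Slc16a3 in 12 of 13 libraries.

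**Figure D1:**
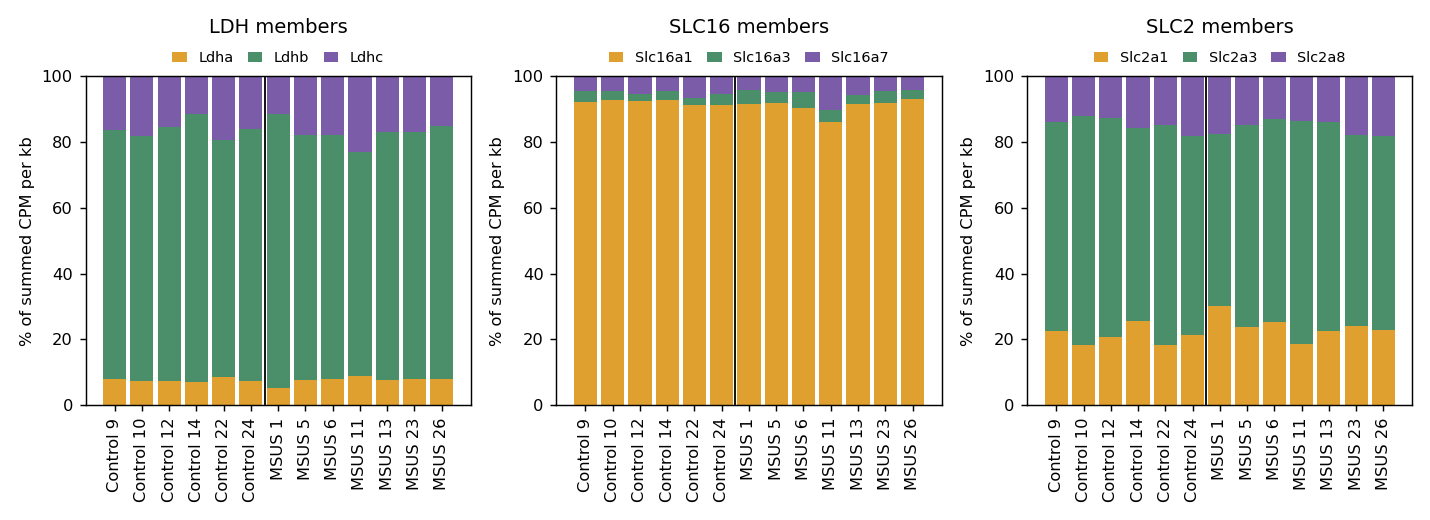
Percent of the summed CPM per kb of each family held by each member in every library, with 6 control and 7 MSUS libraries as stacked columns. Ldhb and Slc16a1 fill most of every column of their families, and Slc2a3 is the largest part of each glucose carrier column.

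Among the glucose carriers, Slc2a3 had the highest level per length. Slc2a3 stood at 37.9 ± 5.38 CPM per kb in controls, Slc2a1 at 12.3 ± 0.786 and Slc2a8, a mostly intracellular carrier, at 8.54 ± 1.27. Slc2a3 exceeded Slc2a1 by 3.11 ± 0.573-fold in controls and by 2.60 ± 0.562-fold in MSUS. The shares of Slc2a3, Slc2a1 and Slc2a8 were 64.3% ± 4.16, 21.1% ± 2.77 and 14.6% ± 2.18 in controls and 60.5% ± 4.81, 23.9% ± 3.42 and 15.5% ± 2.24 in MSUS. Bsg, at 186 ± 19.6 CPM per kb, was 3.87 ± 0.365-fold above Slc16a1.

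Set in 1 order, the control levels per kb ran Ldhb, Bsg, Ldhc, Ldha, Slc16a1, Slc2a3, Slc2a1, Slc2a8, Slc16a7 and Slc16a3. The ranges of the control libraries overlapped for the neighbours Bsg and Ldhc and for Slc16a1 and Slc2a3, and in each pair the first was higher in 12 of 13 libraries. The order across families, and the size of the folds between genes, depended on the transcript length used. With the median length of a gene's coding transcripts, Slc2a3 stood at 295 ± 41.8 CPM per kb, next after Ldhb at 1131 ± 102 and above Bsg at 227 ± 23.9, and Slc16a1 held 75.2% of its family. The order within each of the 3 families was the same under all 3 lengths tried.

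The comparison of MSUS with control asked whether early life stress left a different expression of this fuel pathway in the adult cells. Of the 10 genes, 1 (Slc2a1) was higher and 1 (Ldhb) lower in MSUS at an unadjusted p under 0.05 with limma voom, and none passed after Benjamini-Hochberg adjustment over all genes tested. Of all 14421 genes, 5.42% had a p under 0.05, 3.02% higher and 2.4% lower, and 0% passed the adjustment. The same test with edgeR's quasi-likelihood method and with DESeq2 also gave 0 adjusted calls among all genes, with 793 and 835 genes at an unadjusted p under 0.05 against 781 with limma. The median log2 fold change was -0.07 over the 10 genes and -0.0018 over all genes, with 3 of the 10 positive and 7 negative. Separate ranges for the groups were found in 19 of 14421 genes (0.132%) and in none of the 10.

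**Figure D2:**
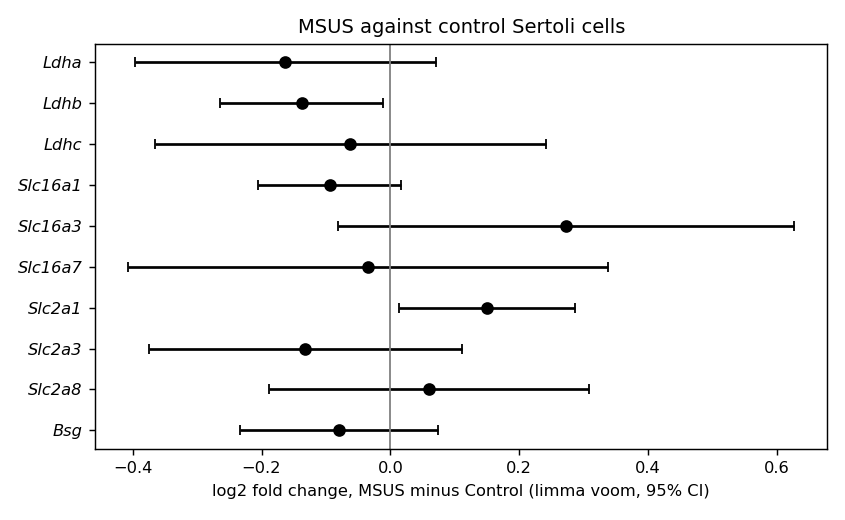
Log2 fold change of MSUS minus control for each of the 10 genes, with the 95% confidence interval of the limma fit as bars and 0 as a line. Only the intervals of Ldhb, from -0.26 to -0.01, and Slc2a1, from 0.01 to 0.29, leave 0 out.

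Ldhb, the subunit linked to lactate oxidation, was slightly lower in MSUS at an unadjusted p under 0.05. Its lowest, median and highest values were 9.69, 9.92 and 9.99 log2 CPM in the 6 control libraries and 9.61, 9.73 and 9.82 in the 7 MSUS libraries. All 7 MSUS libraries lay below the control mean and 2 lay below the lowest control, so the groups overlapped. The log2 fold change was -0.14 ± 0.06 (SE, 95% interval -0.26 to -0.01), with an unadjusted p of 0.0339 and an adjusted p of 0.878 by limma. The p of Ldhb stayed under 0.05 in 5 of 13 fits that each left out 1 library, with a range of 0.00966 to 0.0860, and was lost without control 9, 12, 14 or 24 or MSUS 5, 6, 11 or 26. Part of the Ldhb transcript is shared with a pseudogene: of its 31-base words, 33.0% also occur elsewhere, all in Gm5514, and of its 100-base words 6.44%. The Ldhb count was not whole in 4 libraries. Its sum with 1 feature with no gene name was whole in every library, and that feature had at most 4.552 counts. Features with a gene name were not searched. Reads assigned whole to 1 transcript leave no fraction, so these sums do not bound the reads that Ldhb and the pseudogene share.

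The other lactate dehydrogenase genes had intervals that span 0. Ldha ran from 6.86 over a median of 7.06 to 7.13 log2 CPM in controls and from 6.25 over 6.96 to 7.22 in MSUS. The MSUS range enclosed the control range, and the log2 fold change was -0.16 ± 0.11 (SE, 95% interval -0.40 to 0.07, adjusted p = 0.878). Without MSUS 11 it was -0.22 with an unadjusted limma p of 0.0459, and without MSUS 1 it was -0.06 with an unadjusted limma p of 0.439. Ldhc ran from 7.20 over 7.74 to 7.87 in controls and from 6.995 over 7.66 to 8.19 in MSUS, again with the MSUS values outside the control range on both sides. Its log2 fold change was -0.06 ± 0.14 (SE, 95% interval -0.37 to 0.24, adjusted p = 0.961), and leaving out 1 library moved it between -0.16 and 0.04.

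Of the lactate carriers, Slc16a1 was the least variable gene of the set between control mice. It ran from 7.66 over 7.74 to 7.79 log2 CPM in controls and from 7.51 over 7.65 to 7.74 in MSUS. In Slc16a1, 5 of 7 MSUS libraries lay below the lowest control, but the groups overlapped and the log2 fold change of -0.09 ± 0.05 (SE, 95% interval -0.21 to 0.02) had an unadjusted limma p of 0.0915. Slc16a3 rested on few reads, from 63 to 116 counts per library. It ran from 2.38 over 2.69 to 3.05 log2 CPM in controls and from 2.60 over 2.97 to 3.40 in MSUS, with overlapping groups and a log2 fold change of 0.27 ± 0.17 (SE, 95% interval -0.08 to 0.63, adjusted p = 0.878 by limma). Slc16a7 ran from 4.57 over 4.81 to 5.16 in controls and from 4.35 over 4.65 to 5.75 in MSUS. Its highest value was that of MSUS 11, its log2 fold change was -0.03 ± 0.18 (SE, 95% interval -0.41 to 0.34), and that fold change took the other sign with edgeR (0.02) and DESeq2 (0.03).

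Bsg, the chaperone of MCT1 and MCT4, ran from 7.89 over 8.16 to 8.37 log2 CPM in controls and from 7.88 over 8.07 to 8.28 in MSUS. The 2 ranges nearly coincided, with a log2 fold change of -0.08 ± 0.07 (SE, 95% interval -0.23 to 0.07, adjusted p = 0.902 by limma). It was -0.13 without control 10 and -0.04 without control 24.

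Slc2a1, the basal glucose carrier of the blood-testis barrier, was slightly higher in MSUS at an unadjusted p under 0.05. It ran from 5.22 over 5.33 to 5.44 log2 CPM in controls and from 5.35 over 5.50 to 5.52 in MSUS. All 7 MSUS libraries lay above the control mean and 5 above the highest control, with some overlap. The log2 fold change was 0.15 ± 0.07 (SE, 95% interval 0.01 to 0.29), with an unadjusted p of 0.0340 and an adjusted p of 0.878 by limma. It stayed at p under 0.05 in 8 of 13 fits that left out 1 library, with a range of 0.0207 to 0.0832, and was lost without control 10, 12 or 22 or MSUS 5 or 6. Slc2a3, the high-affinity carrier, ran from 6.89 over 7.21 to 7.50 in controls and from 6.57 over 7.15 to 7.49 in MSUS. The ranges overlapped and its log2 fold change was -0.13 ± 0.12 (SE, 95% interval -0.38 to 0.11, adjusted p = 0.899 by limma), which was -0.045 without MSUS 1 and -0.20 without MSUS 11. Slc2a8 ran from 3.91 over 4.11 to 4.51 in controls and from 3.92 over 4.21 to 4.55 in MSUS, almost the same range, with a log2 fold change of 0.06 ± 0.12 (SE, 95% interval -0.19 to 0.31). It was 0.0067 without control 12 and 0.12 without control 24.

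**Figure D3:**
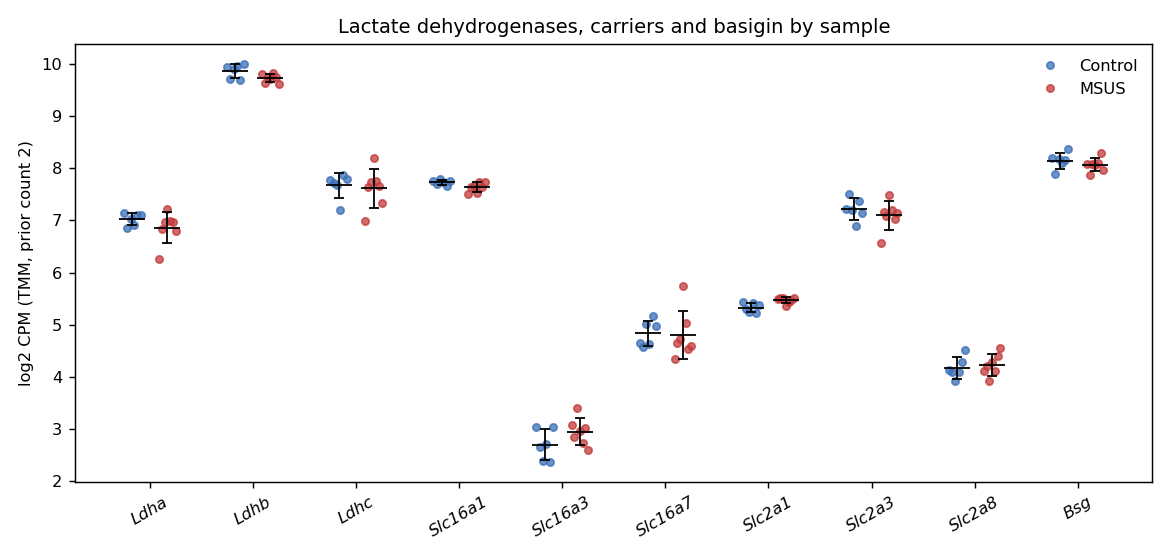
Log2 CPM of the 10 genes in each of the 13 libraries, with controls and MSUS side by side, points for libraries and the group mean with SD as a bar. The groups overlap for every gene, and the MSUS values of Ldha, Ldhc and Slc16a7 extend beyond the control range on both sides.

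The balance of isoforms within a library needs no scaling between libraries. It was compared with a two-sided exact permutation test over all 1716 assignments of the 13 libraries to the groups, for which 0.000583 is the smallest p. None of the 7 log2 ratios differed between the groups at p under 0.05. The balance of Ldha to Ldhb was -2.84 ± 0.15 (SD, n = 6) in controls and -2.86 ± 0.33 (n = 7) in MSUS, a difference of -0.02 with exact permutation p = 0.920. That of Ldha to Ldhc was -0.65 ± 0.19 and -0.75 ± 0.13, exact p = 0.291. Both differences were smaller than the SD of the control libraries.

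The ratios of Slc16a1 to Slc16a3 and of Slc2a1 to Slc2a3 had the lowest p of the 7. Slc16a1 to Slc16a3 was 5.02 ± 0.29 in controls and 4.68 ± 0.31 in MSUS, lower than the control mean in 6 of 7 MSUS libraries, with a difference of -0.34 (exact permutation p = 0.0676, 0.441 after adjustment over the 7 ratios). Slc2a1 to Slc2a3 was -1.89 ± 0.27 and -1.62 ± 0.31, above the control mean in 6 of 7 MSUS libraries, with a difference of 0.27 (exact permutation p = 0.126, adjusted 0.441). In both, the carrier with the fewer transcripts had on average a larger part of the pair in MSUS than in controls, though still the smaller part. Neither difference passed the test. The log2 ratio of Slc16a1 to Slc16a7 differed by -0.06 (exact p = 0.846), that of Slc2a1 to Slc2a8 by 0.09 (exact p = 0.478) and that of Bsg to Slc16a1 by 0.01 (exact p = 0.863).

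**Figure D4:**
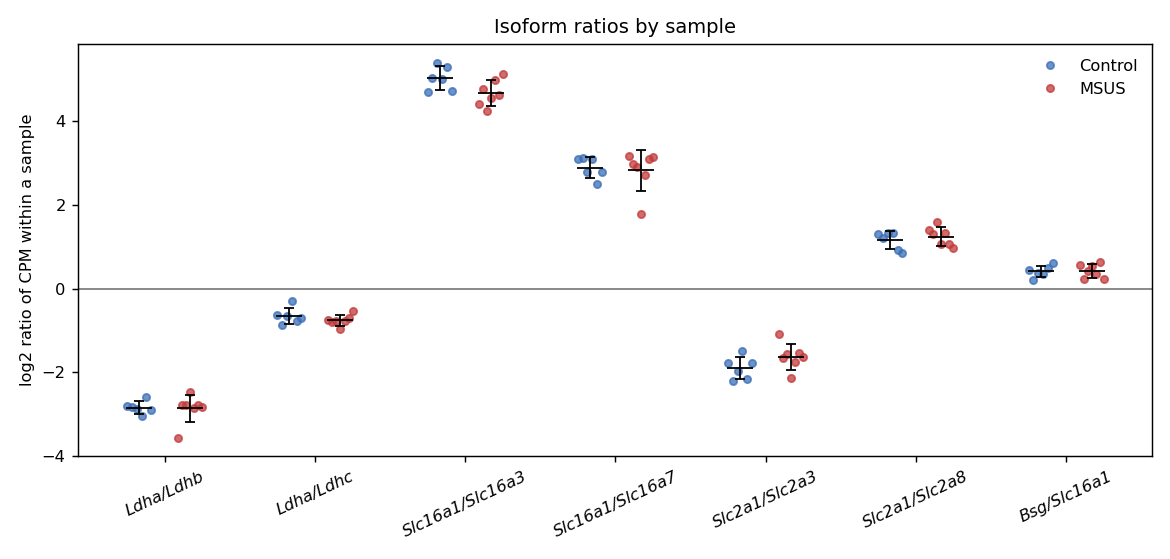
Log2 ratio of CPM for 7 pairs of genes in each library, with control and MSUS side by side, points for libraries and bars for the mean with SD. Slc16a1 to Slc16a3 falls below the lowest control in 4 of 7 MSUS libraries, and 1 MSUS library stands far below the others for Ldha to Ldhb.

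The genes varied together in groups that the LDH and carrier families do not define. After each gene's values were centred on the mean of their group, Ldha and Ldhc had a Pearson correlation of 0.87 over the 13 libraries, Ldhc and Slc2a3 of 0.85, Ldhc and Slc16a7 of 0.77, Ldha and Slc16a7 of 0.72 and Ldha and Slc2a3 of 0.72. Ldhb went with Bsg at 0.63. These correlations are descriptions of the 13 libraries, which share their preparation.

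Several of these genes varied with the spermatocyte markers. The mean of Sycp1, Sycp3, Piwil1, Hormad1, Meiob and Spata16 was correlated with each of the 10 genes over the 13 libraries after centring within groups, in a family of 30 relations with 3 marker means that was chosen after these values were seen. For Ldhc, Pearson's r was 0.90 (permutation p = 0.00055, adjusted 0.0137) and Spearman's rho 0.75 (permutation p = 0.00967, adjusted 0.0725). For Ldha, r was 0.87 (permutation p = 0.00091, adjusted 0.0137) and rho 0.75 (permutation p = 0.00728, adjusted 0.0725). The A and C subunits, one from a gene of wide use and the other from a germ cell gene, thus both followed the spermatocyte marker mean in these libraries. For Slc2a3, r was 0.81 (permutation p = 0.00272, adjusted 0.0272) and rho 0.56 (permutation p = 0.0635, adjusted 0.215). For Slc16a7, r was 0.77 (permutation p = 0.00794, adjusted 0.0421) and rho 0.69 (permutation p = 0.0192, adjusted 0.115).

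The libraries MSUS 1 and MSUS 11 were farthest from the median of the spermatocyte mean. Without them r was 0.73 for Ldhc (permutation p = 0.0206), 0.60 for Ldha (permutation p = 0.0496), 0.55 for Slc16a7 (permutation p = 0.0822) and 0.49 for Slc2a3 (permutation p = 0.118). The permutation p of Slc16a7 and Slc2a3 was then over 0.05. Within the groups, r was 0.84 in the 6 controls and 0.92 in the 7 MSUS libraries for Ldhc, and 0.40 and 0.94 for Ldha. It was 0.77 and 0.85 for Slc2a3 and 0.53 and 0.82 for Slc16a7, so all 4 genes kept a positive r in each group. Slc2a1 varied the other way, with r of -0.63 (permutation p = 0.00612, adjusted 0.0421), rho of -0.70 (permutation p = 0.00836, adjusted 0.0725) and r of -0.64 without the same libraries (permutation p = 0.0123).

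Ldhb, Slc16a1, Slc16a3, Slc2a8 and Bsg had r between -0.16 and 0.19 with the spermatocyte mean. For Ldhb, r was -0.16 (permutation p = 0.565). With the mean of the Sertoli cell markers, Ldhb had r of 0.63 (permutation p = 0.0297, adjusted 0.102), Bsg 0.68 (permutation p = 0.0162, adjusted 0.0694) and Slc2a3 -0.69 (permutation p = 0.00842, adjusted 0.0421). The values of Ldhb and Bsg had adjusted p over 0.05, so neither relation passed the test. Slc2a3 was lower where the Sertoli cell mean was higher, with rho of -0.84 (permutation p = 0.00109, adjusted 0.0327). Without control 10 and control 24, the libraries farthest from the median of that mean, r of Slc2a3 was -0.71 (permutation p = 0.0124). The mean of the round and elongated spermatid markers gave no relation with an adjusted p under 0.05. With it, r was 0.53 for Ldhc (permutation p = 0.126), 0.42 for Ldha (permutation p = 0.316) and 0.71 for Slc16a7 (permutation p = 0.0307, adjusted 0.102). For Ldhc, Ldha and Slc16a7, r was -0.54, -0.44 and -0.36 in controls and 0.70, 0.48 and 0.84 in MSUS.

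**Figure D5:**
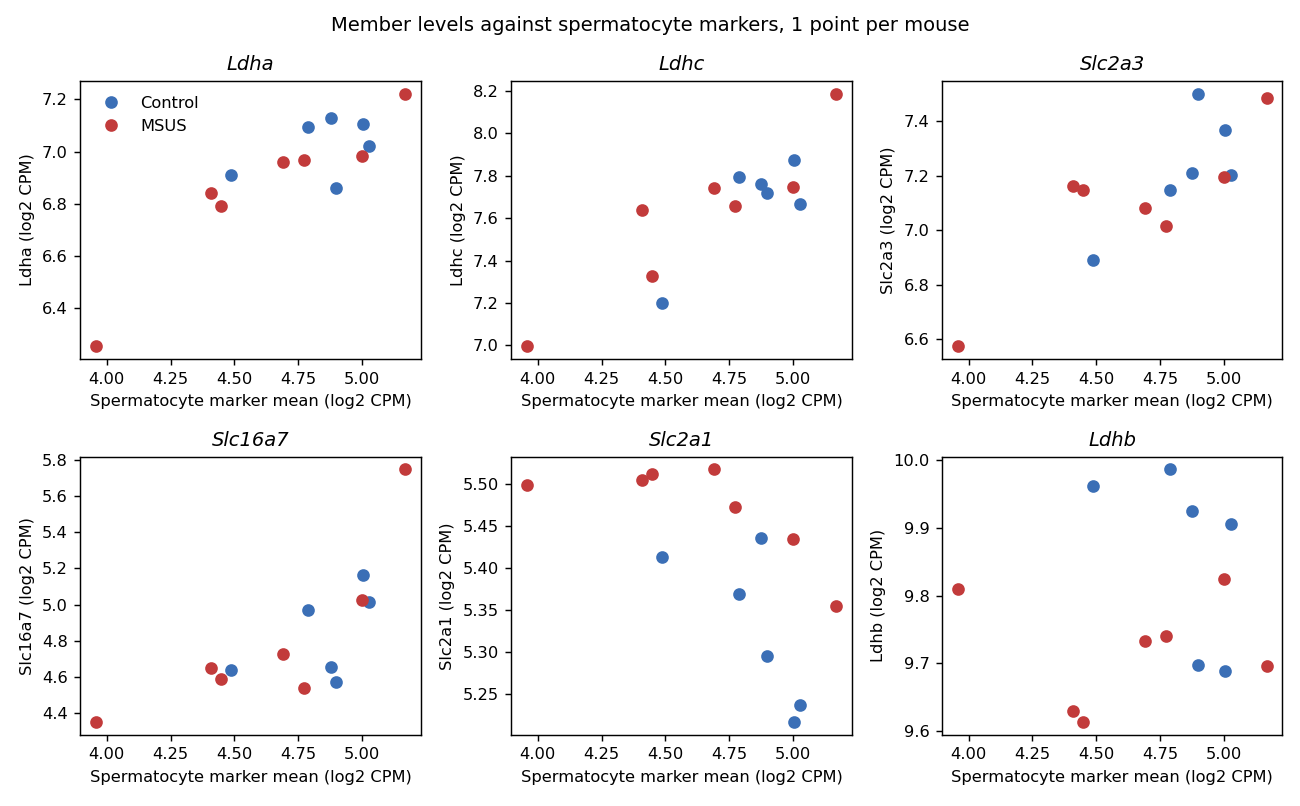
Log2 CPM of Ldha, Ldhc, Slc2a3, Slc16a7, Slc2a1 and Ldhb against the mean log2 CPM of 6 spermatocyte markers, 1 point per library, with controls and MSUS in different colours. Ldhc and Ldha rise with the marker mean, from the lowest library MSUS 1 to the highest MSUS 11.

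These marker values touch the group comparison. The spermatocyte mean was 4.85 ± 0.20 log2 CPM (SD, n = 6) in controls and 4.64 ± 0.41 (n = 7) in MSUS. With that mean as a covariate, a fit added after the data were seen, the log2 fold change of Ldha was -0.02 (unadjusted limma p of 0.742), that of Slc2a3 -4.78e-05 against -0.13 without it, that of Ldhc 0.13, that of Slc16a7 0.20 and that of Slc2a1 0.12 (unadjusted limma p of 0.0989). Ldhb was the 1 gene of the 10 that still had a p under 0.05 in it. With the mean of the round and elongated spermatid markers as a covariate in its place, the log2 fold change was -0.20 for Ldha (unadjusted limma p of 0.0774), -0.16 for Slc2a3, -0.12 for Ldhc, -0.13 for Slc16a7, 0.16 for Slc2a1 (unadjusted limma p of 0.0250) and -0.15 for Ldhb (unadjusted limma p of 0.0200). The values of Ldha, Slc2a3, Ldhc, Slc16a7 and Slc2a1 thus moved in opposite directions under the 2 germ cell covariates.

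Other genes of the pathway were counted in 8 lists of 70 genes, of which 51 were tested. None was higher and 3 were lower in MSUS at an unadjusted p under 0.05, against 3.02% and 2.4% of all genes, and the median log2 fold change over the 51 was -0.03. None passed the adjustment. The 19 list genes under the count filter had at most 29 counts in any library.

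Embigin (Emb), which chaperones monocarboxylate carriers as basigin does, had the lowest p of the list genes. It ran from 6.26 over 6.34 to 6.49 log2 CPM in controls and from 5.96 over 6.16 to 6.30 in MSUS. All 7 MSUS libraries lay below the control mean and 5 below the lowest control. Its log2 fold change was -0.20 ± 0.07 (SE), with an unadjusted p of 0.00911 and an adjusted p of 0.878 by limma. The unadjusted p was under 0.05 in all 24 alternative fits, which rest on the same libraries. When 1 library was left out it ran from 0.0047 to 0.028 by limma. The group-centred correlation of Emb with the spermatocyte mean was 0.56. With that mean as a covariate, its log2 fold change was -0.16 (unadjusted limma p of 0.0311). Neuroplastin (Nptn), a relative of basigin in the same list, had a log2 fold change of -0.07.

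Of the other SLC16 carriers, 7 of 11 were tested, with a median of -0.19. Slc16a6 and Slc16a14 were the most abundant at 5.23 and 4.86 log2 CPM in controls, and Slc16a5 had the largest difference at -0.42 ± 0.57 (SE).

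Cyct, the testis-specific cytochrome c, stood at 3.32 ± 0.20 log2 CPM (SD, n = 6) in controls and 2.85 ± 0.42 (n = 7) in MSUS, with a log2 fold change of -0.48 and an unadjusted limma p of 0.0143. Its group-centred correlation with the spermatocyte mean was 0.85, and with that mean as a covariate its log2 fold change was -0.25 (unadjusted limma p of 0.0941). The other 7 germ cell metabolic isoforms, among them the glycolytic enzymes Gapdhs at 6.35 and Pgk2 at 5.20 log2 CPM in controls, had p over 0.05.

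The remaining lists held no gene at p under 0.05. Hexokinase 2 and hexokinase 1, which trap glucose after uptake, stood at 8.72 and 7.13 log2 CPM in controls with log2 fold changes of 0.03 and 0.05. Of the genes for pyruvate entry and fate, 15 of 16 were tested with a median of -0.03. The pyruvate dehydrogenase kinases Pdk3 and Pdk1, which restrain pyruvate oxidation, were the most abundant of them at 7.32 and 7.11 log2 CPM, and the alanine aminotransferase Gpt had the largest difference at 0.37 ± 0.47 (SE). Among 10 tested hypoxia and glucose uptake regulators, the median was 0.05, Epas1 and Hif1a stood highest at 8.39 and 7.999 log2 CPM, and Tbc1d4 had the largest difference at 0.10. Of the other SLC2 carriers, 4 of 9 were tested with a median of -0.08. Slc2a12 and Slc2a5 stood at 5.24 and 5.02 log2 CPM, and Slc2a13 had a log2 fold change of -0.20. The 3 LDH relatives had a median of -0.04, with Uevld at 5.99 and Ldhal6b at 5.30 log2 CPM in controls and a log2 fold change of -0.19 for Ldhal6b.

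The genes whose centred values over the 13 libraries were most like those of the main members differed between members. Out of 14420 other tested genes, those nearest to Ldha were Aprt at r of 0.97, Rfx4 at 0.95 and Lrrc73 at 0.95, and those nearest to Ldhc were Dkkl1, Gk2 and Ak8, each at 0.96. Nearest to Ldhb were Cited1 at 0.96, Gnai2 at 0.93 and 4930550L24Rik at 0.92. Slc16a1 was closest to Gata4 at 0.88, which is itself one of the Sertoli cell markers, to Tpst2 at 0.87 and to Elk1 at 0.86. For Slc2a1 they were Tmtc2 at 0.94, Pou4f2 at 0.91 and Hnrnpa1 at 0.91, and for Bsg they were Hexa at 0.95, Ddost at 0.93 and Fbxl4 at 0.93. These were picked as the highest of 14420 correlations over 13 libraries and are given as a description with no test.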

How the data were processed

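RNA-seq libraries of FACS-enriched Sertoli cells were analysed, 1 per mouse, from 6 control and 7 MSUS adult males, grouped by sample title. Per the study's methods, the authors trimmed reads with Trim Galore 0.6.5 and quantified transcripts with Salmon 1.1.0 against GENCODE vM23. The table deposited by the authors holds estimated counts per gene from Salmon, with no normalization. Salmon divides reads among similar transcripts, so the values need not be whole, and how transcripts were summed to genes is not given in the sources used here. Of 54281 features, 27170 had no gene name and took 20.7 to 24.1% of the counts of control and 21.6 to 26.7% of MSUS libraries. They entered neither the library sizes nor the tests.

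Counts were rounded, filtered with filterByExpr, TMM-normalized with edgeR 4.0.16 and tested with voom and limma 3.58.1 in R 4.3.3, MSUS minus control, with no covariate and Benjamini-Hochberg adjustment over all 14421 genes. Log2 CPM used a prior count of 2. The fitting steps were tested on simulated data. Levels per kb used the longest protein-coding transcript of GENCODE vM21 on GRCm38, with the median coding transcript and the union of exons as alternatives. Effective lengths were not used here. Isoform ratios were tested by exact permutation, and correlations by 100000 permutations within groups, in Python 3.11.15. Promoter windows are RefSeq's, and sequence sharing between transcripts was counted as exact words of 31 and 100 bases.

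Named were all 10 genes, then of each pathway list every gene with p under 0.05, the 2 most abundant and the 1 with the largest fold change, and for 6 genes the 3 most correlated genes. A gene of the lists that met this rule is not reported here. The genes and lists were chosen with earlier results of these data known. Alternatives were edgeR's quasi-likelihood test, DESeq2 1.42.0, library size only, RLE factors, other filters, unnamed features kept, marker covariates, sample weights, a prior count of 0.5 for ratios, and each library left out in turn. Totals of 12701800 to 18649900 counts set the depth, and counting precision was lowest for Slc16a3 at 63 to 116 counts.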

Additional observations from a re-analysis of the deposited data

Results flagged for a closer look

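Of 34 groups of values examined, 3 held a library whose gap to its nearest neighbour was large for the range of its group by Dixon's 95% critical value, where chance gives about 1.7. The log2 CPM of Ldhc was lowest in library control 14 at 7.20, with the next control at 7.67 and a gap of 0.692 of the range. The log2 ratio of Ldha to Ldhb was lowest in MSUS 1 at -3.56, with the next MSUS library at -2.84 and a gap of 0.662 of the range. MSUS 1 also had the lowest spermatocyte marker mean. The log2 ratio of Slc16a1 to Slc16a7 was lowest in MSUS 11 at 1.77, with the next at 2.71 and a gap of 0.675 of the range. MSUS 11 had the highest spermatocyte and round spermatid marker means. With the slope on the spermatid marker mean removed, the group difference was -0.04 for Ldha to Ldhb, against -0.02 before, and 0.034 for Slc16a1 to Slc16a7, against -0.06. The part of spermatocyte RNA in these ratios was not tested.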

How the results depend on the processing

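The count of genes of the set with adjusted p under 0.05 was 0 in all 24 alternative fits. The count at unadjusted p under 0.05, 2 as reported, was 1 with the spermatocyte covariate and ranged from 0 to 2 when 1 library was left out, with 0 without control 12, MSUS 5 or MSUS 6. Over all genes that count was 781 as reported, 1182 with no count filter and 1294 with a spermatid covariate. The log2 fold change of Slc16a7 took the other sign with edgeR's quasi-likelihood test (0.024), DESeq2 (0.032) and the spermatocyte covariate (0.20), and ranged from -0.19 to 0.044 without 1 library. That of Ldhc was 0.13 with the spermatocyte covariate and -0.16 to 0.041 without 1 library. Leaving out 1 library moved the difference in log2 ratio between -0.086 and 0.095 for Ldha to Ldhb, -0.027 and 0.054 for Bsg to Slc16a1, and -0.14 and 0.11 for Slc16a1 to Slc16a7, which was 0.034 with the spermatid slope removed. For Slc16a1 to Slc16a3 it lay between -0.42 and -0.27, with exact p under 0.05 without control 9 or 24 or MSUS 13 or 26, and for Slc2a1 to Slc2a3 between 0.18 and 0.35, with exact permutation p = 0.0368 without MSUS 11. With the median coding transcript length the control shares were 10.7% for Ldha, 75.2% for Slc16a1, 6.24% for Slc16a3, 18.5% for Slc16a7, 16.5% for Slc2a1, 79.3% for Slc2a3 and 4.196% for Slc2a8, and with the union of exons 6.42% for Ldha. The causes were not tested. No paired analysis was run. The replicate numbers come from the sample titles, and the groups share none of them.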
